A study of Mus musculus with 10 samples.

Results

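CD117+ splenocytes that had been cultured with LPS for 24 h were compared with those cultured for 12 h, on 4 of the 10 Affymetrix mouse gene arrays of a time course. The cells came from the spleens of male mice aged 9-12 weeks, either WT B6 (C57BL/6) mice or RasGRP4-null mice of the same background, in which the gene for the Ras activator RasGRP4 is inactivated. They had been enriched with beads for CD117, the Kit receptor, and plated with 1 µg/ml LPS, so every cell on the 4 arrays had met LPS and no culture without LPS was measured at 12 or 24 h. The 4 arrays are WT 12 h, WT 24 h, RasGRP4-null 12 h and RasGRP4-null 24 h, and each 24 h array was paired with the 12 h array of its genotype. There was 1 array per genotype and time, so both genotypes together served as the 2 arrays of a time point. The labels give 5 mice of each genotype but do not say whether mice were pooled or whether the time points came from 1 cell preparation. The p-values therefore measure the spread between these arrays, part of which may be technical.

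LPS is the cell wall component of Gram-negative bacteria that is sensed by the receptor TLR4 on myeloid cells and on mouse B cells. The first hours of the response are known for inflammatory cytokines and chemokines, and for type I interferon, which induces a set of antiviral genes through the STAT factors and IRF9. B cells that receive LPS grow, enter the cell cycle and, days later, switch antibody class or become plasma cells. A cell that divides makes the enzymes of DNA synthesis and the histones in S phase, and the kinesins, kinases and cyclin B of mitosis in G2 and M phase.

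Values are PLIER intensities, a summary of the probes of a transcript that has no fixed unit, and changes are differences of log2(PLIER + 16). The background, below which 95% of the olfactory receptor probe sets fell, lay between 29.7 and 32.2 on the 4 arrays. Unless a sentence says otherwise, a pair of values stands for 12 and 24 h, in WT and then in RasGRP4-null cells, and values before LPS are those of WT and then RasGRP4-null cells. One dendritic cell marker was near background at these times. Itgax, the gene of the dendritic cell integrin CD11c, had 522 (WT) and 486 (RasGRP4-null) before LPS, but 31.1 and 19.5 in WT cells and 38.2 and 42.5 in RasGRP4-null cells at 12 and 24 h. The 7 shared markers of conventional dendritic cells, Itgax among them, summed to 1947 and 1854 before LPS. They still summed to 985 and 1033 in WT cells and 1108 and 1071 in RasGRP4-null cells. Kit itself had 179 and 133 in WT cells and 334 and 183 in RasGRP4-null cells, all above background. The B cell antigen receptor gene Cd79a lay between 594 and 1342 on the same arrays. Rasgrp4 could not check the labels of these 4 arrays, since its values of 20.7 to 25.4 were all below background.

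The array labelled RasGRP4-null 12 h stands apart. Mela, an antigen gene of endogenous retroviral origin, had 3825, 2114, 2726 and 3594 on the RasGRP4-null arrays of 0, 24, 36 and 48 h and 44.2 to 88.5 on the WT arrays. On the array labelled RasGRP4-null 12 h it had 21.2. Over the other 4 time points 2 genes separated the genotypes by more than 1 on the log2 scale, Mela and the antibody gene Ighg3, and this array lay nearer to the WT arrays for both. Ighg3 has near-identical copies among the antibody genes, so its values are uncertain. Pydc3, an interferon-inducible gene of the pyrin family, went the other way, with 11.1 on this array, 4.83 to 12.0 on the other RasGRP4-null arrays and 26.2 to 174 on the WT arrays. The SD over genes of the RasGRP4-null minus WT difference was 0.33 at 12 h and 0.23 to 0.29 at the other times. The titles give the times used here, while the source names of the RasGRP4-null arrays titled 24, 36 and 48 h name 12, 24 and 36 h, and the design text lists 6 h in place of 36 h. Counts are given with and without the array labelled RasGRP4-null 12 h, as are the changes of named genes that it moves by over 1.5 times.

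From 12 to 24 h, 199 of 11179 genes tested rose, or 1.78%, and 83 fell, or 0.742% (limma, adjusted p under 0.05). The largest rises were mostly genes of mitosis and histones, and smaller ones included Cd79a and Cd79b of the B cell receptor. The falls included interferon-induced genes, CXCR3 ligands, IL-1 genes and markers of macrophages, neutrophils and red cell precursors. The median rise was 1.88-fold and the largest was 1.76 on the log2 scale (Ccnb2), while the median fall was 1.82-fold and the largest was that of Tmem184a. Both 24 h values lay above both 12 h values for all 199 genes that rose and below them for 82 of the 83 that fell. That is not rare in itself, since 15.6% of all genes tested had both 24 h values above both 12 h values and 24.6% had them below. All 282 called genes moved the same way in WT and RasGRP4-null cells, as did 60.1% of all genes tested. Without the array labelled RasGRP4-null 12 h, 22 genes rose and 9 fell, and 30 of these 31 were among the 282. They include Ccnb2, Kif11, Cdca3, Plk1, Hmmr, Kif20a, Kif23, Birc5, Ube2c, Mki67 and Hist1h2bb among the rises, and Tmem184a, Slfn4, S100a8, Cxcl9, Ifi205 and 1700011B04Rik among the falls. For every other called gene named here the call was lost without that array. Without the WT 12 h array 423 rose and 320 fell, and without either 24 h array none was called (1139 and 1919 genes at an unadjusted p under 0.05, against 1830 with all arrays).

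**Figure D1:**
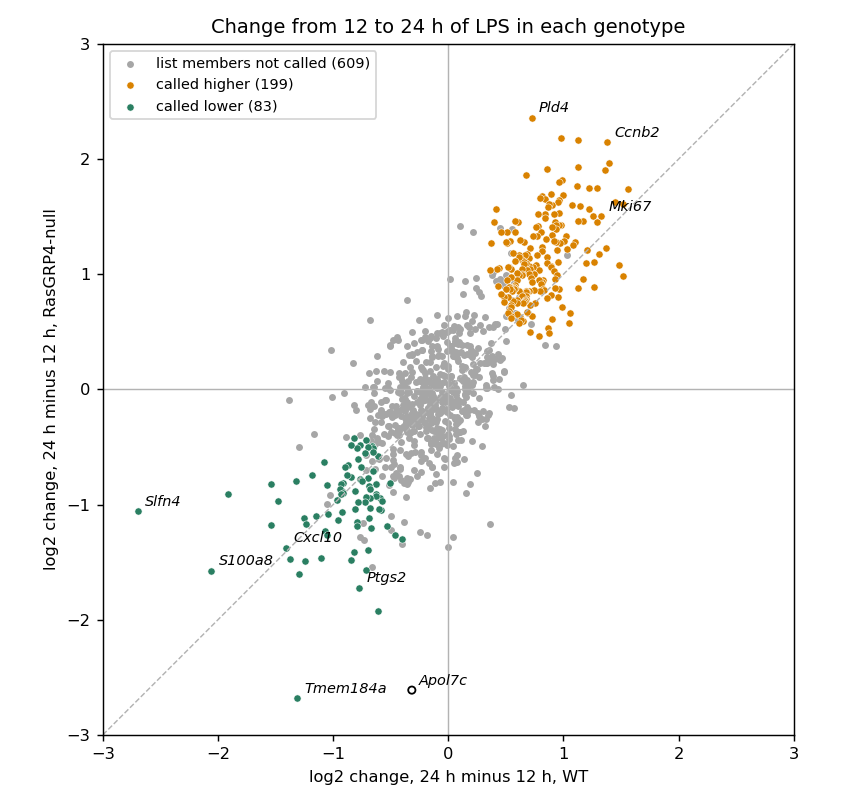
Each point is a gene, placed by its log2 change from 12 to 24 h of LPS in WT cells (horizontal axis) and in RasGRP4-null cells (vertical axis), 1 pair of arrays each, with equal change on the dashed line. The 199 called rises (orange) and 83 called falls (green) lie in the quadrants where both genotypes moved the same way, grey points are members of the gene lists that were not called, and the open circle is Apol7c.

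Genes of mitosis and the spindle rose almost as a whole. Of 38 genes tested in this list 36 rose and none fell, with a median change of 1.21, against -0.05 over all genes. The change was 0.95 in WT cells and 1.44 in RasGRP4-null cells at the median. In bulk RNA a larger share of dividing cells cannot be told apart from more of these transcripts in each cell. Ccnb2 (probe set 17528586), a cyclin B that activates the mitotic kinase CDK1, had 121 and 340 in WT cells and 59.5 and 318 in RasGRP4-null cells. Both 24 h values were above both 12 h values, and the lowest of the 4 was that of the array labelled RasGRP4-null 12 h. The change was 1.76 (SE 0.19, adjusted p = 0.00291), and 1.37 without that array (adjusted p = 0.0159).

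Mki67, the gene of the proliferation antigen Ki-67, had 350 and 903 in WT cells and 318 and 930 in RasGRP4-null cells. Here the 12 h values of the genotypes were close, and both 24 h values were far above them, with a change of 1.42 (SE 0.16, adjusted p = 0.00291). Without the array labelled RasGRP4-null 12 h it was 1.33 (adjusted p = 0.0398). Ube2c, the ubiquitin-conjugating enzyme of the anaphase-promoting complex, had 136 and 338 in WT cells and 94.7 and 355 in RasGRP4-null cells (1.48, SE 0.17, adjusted p = 0.00291). Birc5, the survivin subunit of the chromosomal passenger complex, had 57.3 and 184 and then 40.1 and 158 (1.54, SE 0.17). The groups did not overlap for either gene.

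The motors and kinases of the spindle moved with them. Kif11, the kinesin that pushes the spindle poles apart, had 178 and 494 in WT cells and 101 and 441 in RasGRP4-null cells (1.68, SE 0.21, adjusted p = 0.0035). Plk1, a mitotic kinase, had 162 and 374 in WT cells and 87.1 and 447 in RasGRP4-null cells (1.65, SE 0.23). The 24 h values of the genotypes were close for both genes, while the 12 h value was lower on the array labelled RasGRP4-null 12 h. Hmmr, which encodes a spindle-associated hyaluronan receptor, rose by 1.63, and the central spindle kinesins Kif20a and Kif23 by 1.58 and 1.44. Kif20a had a change of 1.00 without the array labelled RasGRP4-null 12 h and was still called (adjusted p = 0.0398). Cdca3, which triggers mitotic entry and was in none of the lists, rose by 1.65 (54.2 and 191 in WT cells, 42.1 and 178 in RasGRP4-null cells), and by 1.50 without that array (adjusted p = 0.0167). Only 2 of the 38 were not called. Bub1b, a spindle checkpoint kinase, had a change of 0.86 (adjusted p = 0.0558). Pttg1, the gene of securin, had 89.5 and 69.5 in WT cells and 104 and 72.1 in RasGRP4-null cells (-0.38, adjusted p = 0.209).

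The count of calls in this list depended on the arrays used. In 35 of the 38 genes the array labelled RasGRP4-null 12 h was below WT 12 h, and without it 11 of the 38 were called. Without the WT 12 h array 35 were called, and without either 24 h array none was. The median change was 0.91 without the array labelled RasGRP4-null 12 h and 1.46 without WT 12 h, and all 36 genes kept their direction with each array left out in turn.

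**Figure D2:**
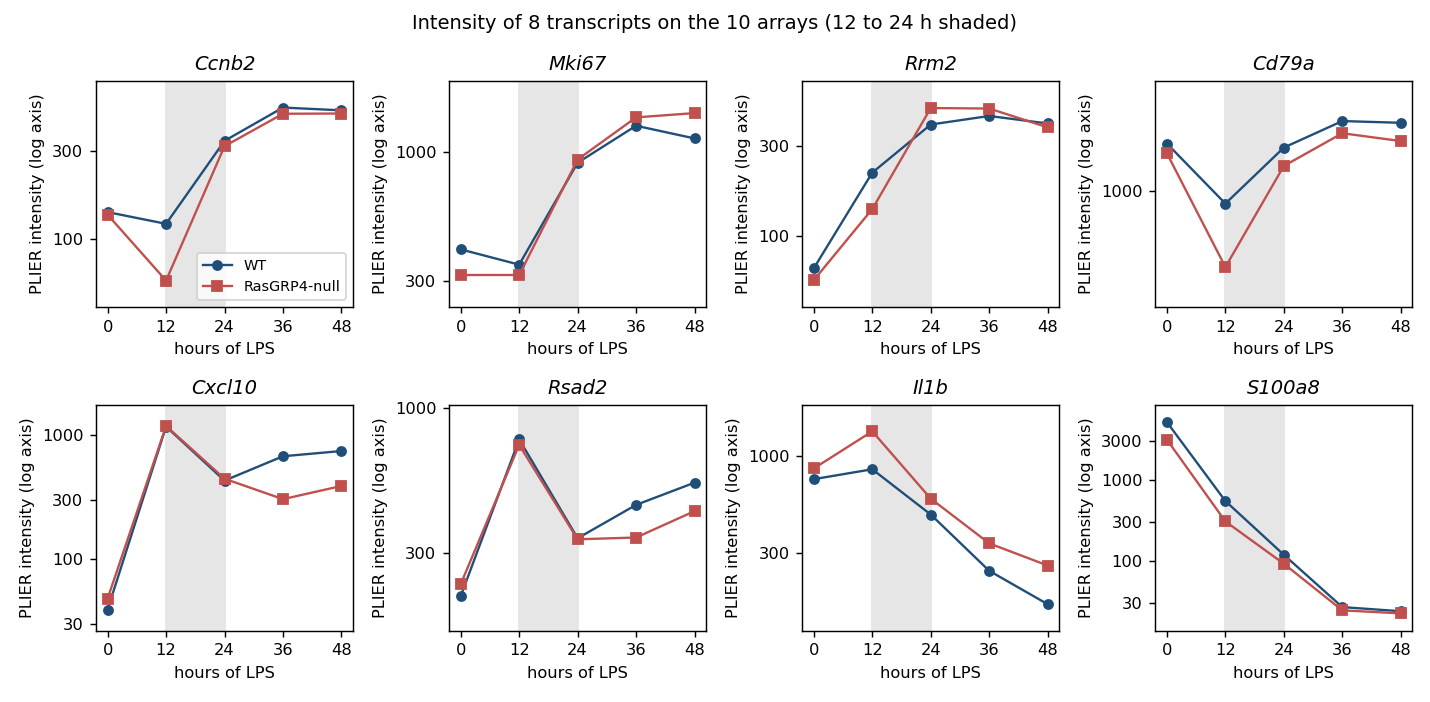
PLIER intensity (log axis) of 8 transcripts against hours of LPS, for WT and RasGRP4-null cells, 1 array per point, with 12 to 24 h shaded. The mitotic genes have their low point or a low level at 12 h and higher values from 24 h on, as for Ccnb2 with 121 and 59.5 at 12 h and 340 and 318 at 24 h.

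The promoters of the mitotic genes are shown because these genes moved together, and because their promoters are known for CCAAT boxes, bound by the factor NF-Y. The 200 bases before the start of 3 of them follow, 5′ to 3′ on the gene's strand, from RefSeq on build GRCm38.p6, with CCAAT or its complement ATTGG in capitals.
Ccnb2, chr9:70421555-70421754, minus strand: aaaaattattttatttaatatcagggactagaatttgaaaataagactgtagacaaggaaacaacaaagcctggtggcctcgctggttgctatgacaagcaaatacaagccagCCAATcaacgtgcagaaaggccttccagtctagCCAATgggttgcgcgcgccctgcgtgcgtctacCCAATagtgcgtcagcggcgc
Ube2c, chr2:164769729-164769928, plus strand: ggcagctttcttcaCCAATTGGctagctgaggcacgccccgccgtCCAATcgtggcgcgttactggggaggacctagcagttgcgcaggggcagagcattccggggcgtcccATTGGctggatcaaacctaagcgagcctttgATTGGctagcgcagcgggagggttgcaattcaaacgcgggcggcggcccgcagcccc
Mki67, chr7:135716380-135716579, minus strand: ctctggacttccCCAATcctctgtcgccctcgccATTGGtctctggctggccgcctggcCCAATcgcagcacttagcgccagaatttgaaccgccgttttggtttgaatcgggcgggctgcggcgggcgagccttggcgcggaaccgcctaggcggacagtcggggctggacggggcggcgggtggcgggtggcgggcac
The 3 windows hold 3, 5 and 3 such matches, of which 2 in Ube2c overlap as CCAATTGG.

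Of the 32 mitosis and spindle genes with a window in the table, 26 (81.2%) held CCAAT on either strand, against 32.7% of all 27025 genes with a window and 8 of 21 antiviral interferon genes. TTTGAA, the core of the cell cycle genes homology region, stood in 11 of the 32 (34.4%) and in 14.4% of all genes with a window. A match of these letters is a description of the window and not a binding site.

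Fewer genes of S phase were called. In the list of DNA replication and nucleotide supply 7 of 39 genes tested rose and none fell, with a median of 0.45 and all 39 changes above 0. Rrm2, the subunit of ribonucleotide reductase that limits the making of deoxynucleotides, had 216 and 388 in WT cells and 139 and 474 in RasGRP4-null cells (1.23, SE 0.19, adjusted p = 0.00735). Tk1, thymidine kinase, rose by 1.08 (SE 0.17), Ccne1, the cyclin of the G1 to S transition, by 0.80 (SE 0.15), and Cdc45, a part of the replicative helicase, by 0.64 (SE 0.13). Cdc45 had 26.3 and 28.2 before LPS, so its values at 12 h (180 and 154) lay already nearer to those at 24 h (271 and 266). Without the array labelled RasGRP4-null 12 h none of the 39 was called, without either 24 h array none was, without the WT 12 h array 19 were, and on the GAPDH-normalized scale 3 were.

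Histone genes, a group named after its values were seen, had 9 of 13 tested members higher and none lower. Hist1h2bb, a histone H2B gene, had 105 and 329 in WT cells and 64.1 and 229 in RasGRP4-null cells (1.56, SE 0.18, adjusted p = 0.00291). Hist1h1b, a linker histone gene, had 175 and 450, then 76.5 and 295 (1.52, SE 0.28), with a change of 1.00 without the array labelled RasGRP4-null 12 h (adjusted p = 0.174). Histone genes have near-identical copies, so the probes of one can read another. By the same kind of count 12 of 23 kinesin genes and 5 of 8 condensin genes rose, and none fell.

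B cell genes were among the rises. Of 11 B cell markers 2 rose and none fell, with a median of 0.55. Cd79a and Cd79b, the signalling chains of the B cell receptor, stood in WT cells at 916 and 929 after 12 h and at 1342 and 1265 after 24 h. RasGRP4-null cells had 594 and 603 and later 1184 and 1269. The 12 h values were the lowest of the time course in both genotypes. The changes were 0.76 (SE 0.15, adjusted p = 0.0243) and 0.75 (SE 0.16, adjusted p = 0.0348). Without the array labelled RasGRP4-null 12 h that of Cd79b was 0.48 (adjusted p = 0.258). The summed intensity of the 11 markers, none of which was below background on all 4 arrays, was 8624 and 6343 at 12 h and 10367 and 10902 at 24 h (WT, RasGRP4-null). On the GAPDH-normalized scale neither gene was called.

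Cd38, an ectoenzyme of B cells, had 560 and 868 in WT cells and 366 and 746 in RasGRP4-null cells, and rose by 0.81 (SE 0.17, adjusted p = 0.0338), with a change of 0.52 without the array labelled RasGRP4-null 12 h (adjusted p = 0.263). Plasma cell genes were not called. Mzb1, a chaperone of antibody assembly, had 566 and 876, then 498 and 881 (0.71, adjusted p = 0.0522), and no gene of 23 passed. In the list of ER chaperones 1 of 36 genes rose, the oxidase Ero1lb, with 213 and 388 in WT cells and 150 and 374 in RasGRP4-null cells (1.02, SE 0.22, adjusted p = 0.0376).

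The genes of the DO protein, which tempers peptide loading in B cells, were the called ones of 8 genes of MHC class II presentation. H2-Oa had 799 and 806 before LPS, 136 and 94.9 at 12 h, and 232 and 229 at 24 h (0.92, SE 0.16, adjusted p = 0.0138). The 24 h values lay between those of 12 h and 0 h in both genotypes, and so did those of H2-Ob (0.73, SE 0.14). Ciita, the master activator of class II genes, had 127 and 201, then 132 and 211 (0.61, adjusted p = 0.0661).

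Other genes rose as well. Cxcr3, the receptor for Cxcl9, Cxcl10 and Cxcl11, had 67.2 and 149 in WT cells and 37.8 and 174 in RasGRP4-null cells (1.40, SE 0.20, adjusted p = 0.00652), and 1.00 without the array labelled RasGRP4-null 12 h (adjusted p = 0.0565). Gzma, the granzyme A of cytotoxic cells, had 229 and 441, then 102 and 296 (1.15, SE 0.26, adjusted p = 0.0394), and was the only called one of 8 NK cell markers. Without that array its change was 0.66 (adjusted p = 0.292). Pld4, a lysosomal exonuclease, had 1124 and 1258 before LPS, 279 and 100 at 12 h, and 472 and 582 at 24 h (1.54, SE 0.32, adjusted p = 0.031). Its change was 0.77 without the array labelled RasGRP4-null 12 h (adjusted p = 0.104) and 2.32 without WT 12 h. Naaa, a lysosomal amidase and marker of XCR1-type dendritic cells, had 56.5 and 91.3, then 35.8 and 79.6 (0.72, SE 0.16). It was the only called one of 7 such markers, of which 4 were higher and 2 lower in both genotypes. The transcription factor Egr3 rose by 0.93 (SE 0.21) and the unnamed model Gm5593 by 1.53, against 0.53 and 0.94 without the array labelled RasGRP4-null 12 h, where neither was called. Of the 199 genes that rose, 65 had both 12 h values below both 0 h values and 91 had them above. These shares were not counted over all genes tested, and the 12 h values also entered the calls.

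Of the gene and marker lists, that of interferon-induced antiviral genes held the most falls. Of 29 tested 6 fell and none rose (Rsad2, Ifit1, Ifitm3, Oasl1, Irf7 and Ifit2). The median was -0.40, and 26 had lower values in both genotypes, a share not counted over all genes. Both 24 h values lay below both 12 h values for 22 of the 29, against 24.6% of all genes tested. Rsad2 (viperin), an inhibitor of viral replication, had 772 and 339 in WT cells and 737 and 336 in RasGRP4-null cells (-1.12, SE 0.15, adjusted p = 0.00527). The array labelled RasGRP4-null 12 h was close to WT 12 h here. Ifit1, which binds viral RNA, had 18.9 and 23.9 before LPS, 827 and 900 at 12 h, and 390 and 498 at 24 h (-0.94, SE 0.13). Irf7, the transcription factor that amplifies type I interferon, had 1337 and 693, then 1467 and 824 (-0.88, SE 0.13, adjusted p = 0.00699). All 3 were above their values before LPS at both times. Ifitm3, which blocks viral entry, fell by 0.91 on the log2 scale, and Ifi205, a DNA-binding member of the same response that was in none of the lists, by 1.21 (1506 and 629, then 1815 and 797). Without the array labelled RasGRP4-null 12 h none of the 29 was called, as without either 24 h array, and 10 were without the WT 12 h array.

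The 200 bases before the start of the first pair are shown since interferon acts on such genes through a known element, the ISRE. It was searched on both strands as a pair of GAAA with any 2 bases between them, and its matches stand in capitals, here as their complement with TTTC on each side.
Rsad2, chr12:26456453-26456652, minus strand: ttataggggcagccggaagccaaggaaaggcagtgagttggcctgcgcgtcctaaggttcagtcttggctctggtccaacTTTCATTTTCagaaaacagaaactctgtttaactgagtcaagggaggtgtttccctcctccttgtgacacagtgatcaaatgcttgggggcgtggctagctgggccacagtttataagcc
Ifit1, chr19:34640689-34640888, plus strand: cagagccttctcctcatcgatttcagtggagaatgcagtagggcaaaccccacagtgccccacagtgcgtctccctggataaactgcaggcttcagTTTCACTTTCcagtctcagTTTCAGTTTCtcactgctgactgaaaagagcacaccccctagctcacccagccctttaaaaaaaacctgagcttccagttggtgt
The element stood in 9 of 21 antiviral genes with a window (42.9%), in none of the 32 mitotic genes and in 2.65% of all 27025 genes with a window.

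Not every list of interferon-inducible genes held a called gene. The GTPases of the Gbp and Irg families, which act against intracellular pathogens, had no called gene of 14 and a median of 0.13. Gbp6 had 45.4 and 58.1, then 32.7 and 55.7 (0.42, adjusted p = 0.276), and Irgm2 had 435 and 344, then 432 and 353 (-0.30, adjusted p = 0.366). Whether the GTPases differ from the antiviral list was not tested.

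The 3 ligands of CXCR3, which draw activated T and NK cells, were the called ones of 14 chemokine genes. Cxcl9 had 566 and 208 in WT cells and 626 and 215 in RasGRP4-null cells (-1.43, SE 0.17, adjusted p = 0.00291), and its fall held without the array labelled RasGRP4-null 12 h (-1.44, adjusted p = 0.0398). Cxcl10 had 39.4 and 48.2 before LPS, 1163 and 1176 at 12 h, and 428 and 443 at 24 h (-1.39, SE 0.29, adjusted p = 0.0291). Cxcl11 had 79.2 and 28.3, then 109 and 29.2 (-1.28, SE 0.18, adjusted p = 0.00595), and its 24 h values were below background. The genotypes gave nearly equal values for all 3 ligands at 24 h. Ifng, the interferon that induces these ligands, had 548 and 261 in WT cells and 254 and 127 in RasGRP4-null cells (-0.97, SE 0.29, adjusted p = 0.128) and was not called. Its WT value at 24 h was above its RasGRP4-null value at 12 h.

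Of 9 genes of the IL-1 family 3 fell, 6 were not called and none rose. The genes that fell were the ligands Il1a and Il1b and the receptor antagonist Il1rn. Il1b had 849 and 484 in WT cells and 1361 and 590 in RasGRP4-null cells (-0.99, SE 0.15, adjusted p = 0.008). Il1a had 180 and 93.0, then 328 and 107 (-1.16, SE 0.22, adjusted p = 0.0177, and -0.75 without the array labelled RasGRP4-null 12 h, adjusted p = 0.145). Il1rn, at 14.8 and 21.3 before LPS, had 746 and 384, then 888 and 466 (-0.92, SE 0.15, adjusted p = 0.011). The 12 h values were higher in RasGRP4-null than in WT cells for all 3 genes. Beside Il1a and Il1b no other of 16 inflammatory cytokine genes was called, and Tnf had a change of -0.66 (adjusted p = 0.0558). Il10, the inhibitory cytokine, had 226 and 314, then 194 and 540 (0.92, SE 0.22, adjusted p = 0.0562).

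Among 14 prostaglandin and leukotriene enzymes 2 fell. Ptgs2, the inducible cyclooxygenase, had 345 and 195 in WT cells and 718 and 206 in RasGRP4-null cells (-1.25, SE 0.29, adjusted p = 0.046). Without the array labelled RasGRP4-null 12 h its change was -0.63 (adjusted p = 0.273), and the call was lost with each other scale, pseudocount or filter tried on this gene. Hpgds, the prostaglandin D synthase of blood cells, had 112 and 51.4, then 141 and 59.3 (-0.99, SE 0.20, adjusted p = 0.0246). Ptgs1, the constitutive cyclooxygenase, had 1249 and 1240 before LPS and was below background at 12 and 24 h in both genotypes (17.9 to 23.4), so no change could be measured.

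Some macrophage genes fell as well. Of 16 markers of macrophages and monocytes 4 fell (Vcam1, Axl, Spic and Cd14) and none rose, with a median of -0.31. Spic, the transcription factor of red pulp macrophages, had 995 and 832 before LPS, 237 and 292 at 12 h, and 124 and 165 at 24 h (-0.81, SE 0.17, adjusted p = 0.0307). Axl, a receptor for dying cells, fell by 0.92 on the log2 scale and Vcam1, the adhesion molecule of splenic macrophages, by 0.90. The summed intensity of the 16 markers was 24272 and 26175 before LPS, 1773 and 2204 at 12 h, and 1643 and 2158 at 24 h, with 4 of them below background on all 4 arrays. The sums thus differed far more between 0 and 12 h than between 12 and 24 h. Timd4, a phosphatidylserine receptor of resident macrophages, had 108 and 36.4, then 189 and 56.8 (-1.37, SE 0.22). Clec7a, the beta-glucan receptor dectin-1, had 141 and 86.5, then 235 and 50.2 (-1.27, SE 0.25, and -0.70 without the array labelled RasGRP4-null 12 h, adjusted p = 0.121). Dnase1l3, a nuclease secreted by macrophages and dendritic cells, had 302 and 118, then 349 and 152 (-1.19, SE 0.17).

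S100a8, a subunit of the neutrophil protein calprotectin, had 5108 and 3108 before LPS. It had 547 and 119 in WT cells and 307 and 92.5 in RasGRP4-null cells at 12 and 24 h (-1.82, SE 0.19, adjusted p = 0.00291), and 27.1 and 24.7 at 36 h. The values were lower at each later time in both genotypes, and those of 36 h were below background. Its partner S100a9 fell by 0.96 on the log2 scale, to values below background, and the 9 neutrophil markers summed to 828 and 537 at 12 h and 277 and 257 at 24 h, 5 of them below background on all 4 arrays. Among 8 red cell precursor markers Alas2, the first enzyme of erythroid heme synthesis, fell (286 and 88.1, then 643 and 276, -1.36, SE 0.26). The summed intensity of the 8 was 854 and 1136 at 12 h and 470 and 706 at 24 h, with 2 of the 8 below background on all 4 arrays. The part of these other cell types in the changes of the inflammatory and mitotic genes was not tested.

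The largest fall of all was that of Tmem184a, a transmembrane protein gene, with 53.9 and 12.1 in WT cells and 203 and 18.2 in RasGRP4-null cells. Its change was -1.31 in the former and -2.68 in the latter (SE of their mean 0.34, adjusted p = 0.012), and -1.21 without the array labelled RasGRP4-null 12 h (adjusted p = 0.0415). Both 24 h values were below background, and so were both 0 h values of 1.87 and 3.69. Slfn4, a Schlafen gene of myeloid cells, had 364 and 42.6, then 161 and 68.7 (-1.88, SE 0.29, adjusted p = 0.00826). Klri1, a lectin-like receptor of killer cells, had 60.7 and 15.2, then 97.2 and 21.2 (-1.45, SE 0.20), with both 24 h values below background. The model 1700011B04Rik had 471 and 113, then 150 and 72.4 (-1.41, SE 0.28, and -0.79 without WT 12 h), and the amino acid transporter gene Slc7a8 had 113 and 30.1, then 170 and 79.1 (-1.22, SE 0.23, and -0.81 without WT 24 h). Of the 83 genes that fell, 56 had both 12 h values above both 0 h values, and 42 still had both 24 h values above them. Here too the shares over all genes tested were not counted, and the 12 and 24 h values also entered the calls.

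**Figure D3:**
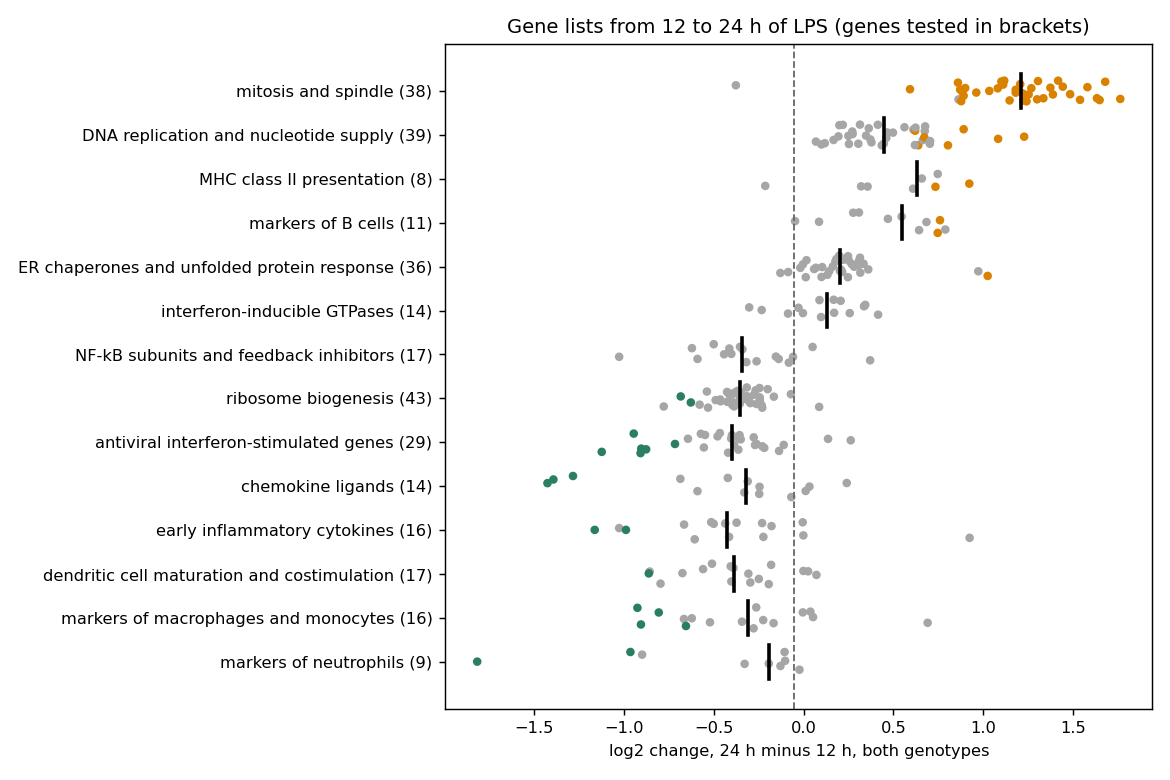
Each point is a gene of 1 of 14 gene or marker lists (genes tested in brackets), placed by its log2 change from 12 to 24 h of LPS over both genotypes. Orange points rose, green points fell and grey points were not called, the black bars are list medians and the dashed line is the median of all genes (-0.05). Nearly all mitosis and spindle genes are orange, with a median of 1.21, and the green points of the antiviral and chemokine lists lie apart from their medians of -0.40 and -0.32.

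Ribosome biogenesis, which supplies growing cells with ribosomes, had 2 of 43 genes that fell, the assembly factors Utp20 (301 and 185, then 330 and 196, -0.68, SE 0.13) and Noc2l (-0.63, SE 0.13), and none that rose. Its median was -0.35, and 33 genes had lower values in both genotypes, though WT cells had a median of -0.56 and RasGRP4-null cells one of -0.18. For 31 of the 43 both 24 h values lay below both 12 h values, against 24.6% of all genes tested. Among 17 genes of dendritic cell maturation Pdcd1lg2, the PD-1 ligand PD-L2, fell alone (238 and 160, then 440 and 184, -0.86, SE 0.19, adjusted p = 0.0376), with a change of -0.50 without the array labelled RasGRP4-null 12 h (adjusted p = 0.254). Ccr7, the receptor that guides these cells to lymph nodes, had 2505 and 1744, then 3226 and 1808 (-0.67, adjusted p = 0.0554), and Tnfsf4, the OX40 ligand, had a change of -0.56 (adjusted p = 0.216). Among 7 T cell markers Tcf7, a transcription factor of naive T cells, fell (236 and 147, then 436 and 222, -0.78, SE 0.16). The other 6 were not called. Of the 7, 3 were lower and 1 was higher in both genotypes, and the highest change was 0.54.

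No gene was called in 17 of the 32 gene lists and in 8 of the 15 marker lists. NF-kB subunits and inhibitors had a median of -0.34 with 13 of 17 genes lower in both genotypes. For 9 of the 17 both 24 h values lay below both 12 h values, against 24.6% of all genes tested. The smallest p of this list was that of the inhibitor Tnip3 (511 and 238, then 635 and 310, -1.03, adjusted p = 0.0523). STAT and SOCS genes had -0.25, p53 targets -0.32, ATF4 targets -0.19, glycolysis -0.08, cholesterol synthesis -0.12, and constitutive proteasome subunits -0.14 at the median. Respiratory chain subunits had 0.03, but -0.05 on the GAPDH-normalized scale, and 12 reference genes had -0.03, but 0.01 after quantile normalization. In the p53 list Cdkn1a, the cell cycle inhibitor p21, had 881 and 521 in WT cells and 1858 and 823 in RasGRP4-null cells (-0.95, adjusted p = 0.0929). Shared conventional dendritic cell, SIRPA-type, plasmacytoid, mast cell, basophil, plasma cell and CD117 progenitor markers held no called gene. Of the RasGRP family, Rasgrp2 had 26.4 and 40.1, then 26.5 and 47.1 (0.49, adjusted p = 0.0776).

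Whether the genotypes differed in this step was asked with a term for each genotype at 12 and at 24 h, whose spread came from the arrays at 0, 36 and 48 h. No gene was called (0.0%), while 1174 of 11179 had an unadjusted p under 0.05. Without either 0 h array, which leaves 1 residual degree of freedom, 299 genes were called. The lowest adjusted p was 0.0664, for Mela and for Apol7c. Apol7c, an apolipoprotein L gene of dendritic cells, had 73.7 and 56.0 in WT cells and 591 and 83.3 in RasGRP4-null cells, so its genotypes differed at 12 h and were near each other at 24 h. Znrd1, a subunit of RNA polymerase I, had 154 and 130, then 38.9 and 164 (adjusted p of the difference 0.319). For all 3 the value that stood out was that of the array labelled RasGRP4-null 12 h, and the change of Mela in that genotype, 5.84 on the log2 scale, rests on it. Of the 199 genes that rose, 182 were lower on that array than on WT 12 h, against 50.1% of all genes. The change was larger in RasGRP4-null cells for 171 of the 199, and no share over all genes was counted for this. Of the 83 that fell, 68 were higher on that array than on WT 12 h, and 45 had the larger change in RasGRP4-null cells. The values of that array also entered the calls. The 182, 171, 68 and 45 therefore cannot be set against unselected genes and test nothing about that array. With 1 array per condition, a genotype difference at 12 h and a property of that 1 array cannot be told apart.

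The next 12 h step that shares no array with this one, from 36 to 48 h, held no called gene (0.0%, with 274 at an unadjusted p under 0.05). The difference between the steps was tested directly, and 44 genes (0.394%) changed more positively from 12 to 24 h and 8 (0.0716%) more negatively. All 44 of the former and 7 of the latter were also called from 12 to 24 h. The tested difference contains the 12 to 24 h change itself, so this overlap is no independent support for the calls. Mitosis and spindle genes made up 13 of the 52, Ccnb2 and Kif11 among them (difference 1.79 and 1.82, adjusted p = 0.0309 for each). The median change of the mitotic list was -0.13 from 36 to 48 h. For 195 of the 199 genes that rose, all 4 values at 36 and 48 h lay above both 12 h values, and for 78 of the 83 that fell they lay below. Mki67, for example, had 1274 and 1132 in WT cells and 1377 and 1433 in RasGRP4-null cells at 36 and 48 h. The share of all genes tested with later values beyond both 12 h values was not counted. The same 12 h values also entered the calls, so these counts are no test of whether a change lasted. The count of 52 depended on single arrays and on the scale. It was 445 without the WT 12 h array, 5 without WT 36 h and 0 without any 1 of WT 24 h, WT 48 h or the RasGRP4-null arrays of 12, 24, 36 and 48 h, and 0 with a pseudocount of 1.

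**Figure D4:**
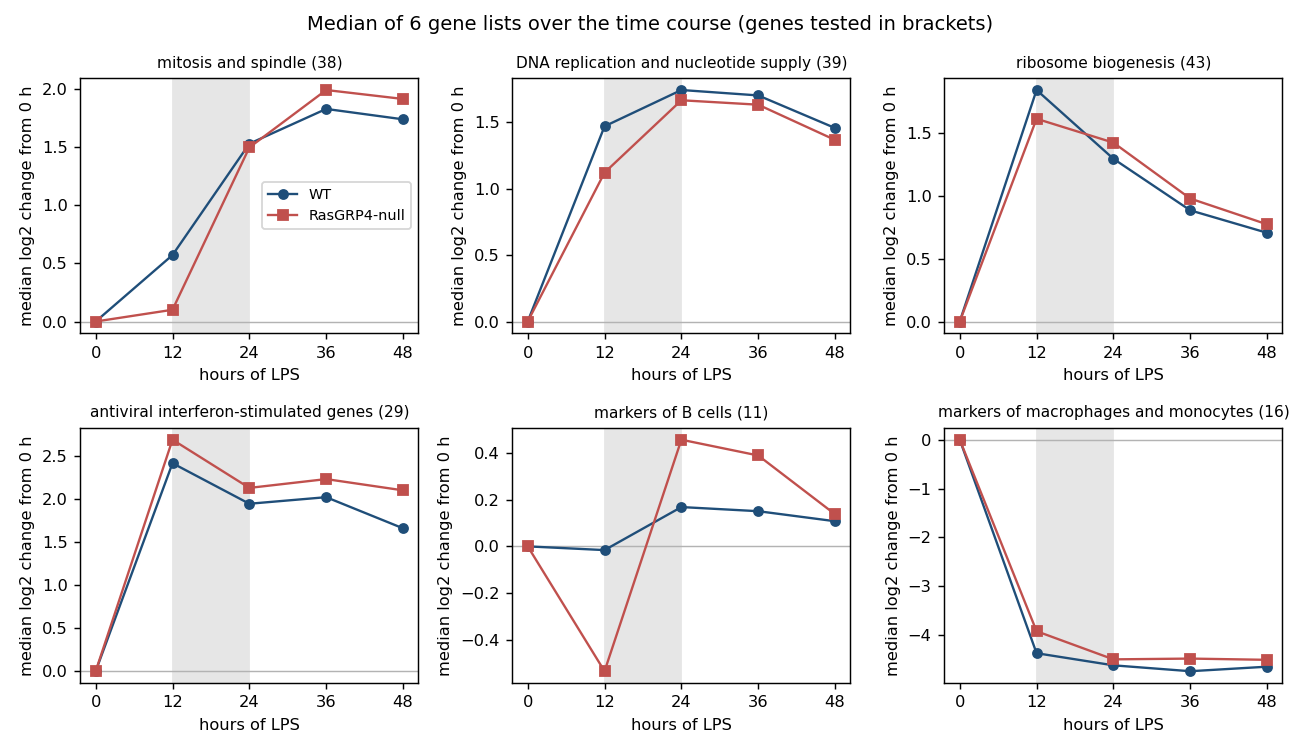
Median log2 change from 0 h of 6 gene lists against hours of LPS, for WT and RasGRP4-null cells, with genes tested in brackets. The mitosis list climbs between 12 and 24 h (median step 1.21) and is nearly level from 36 to 48 h (-0.13), while the antiviral list declines from its 12 h level (-0.40).

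**Figure D5:**
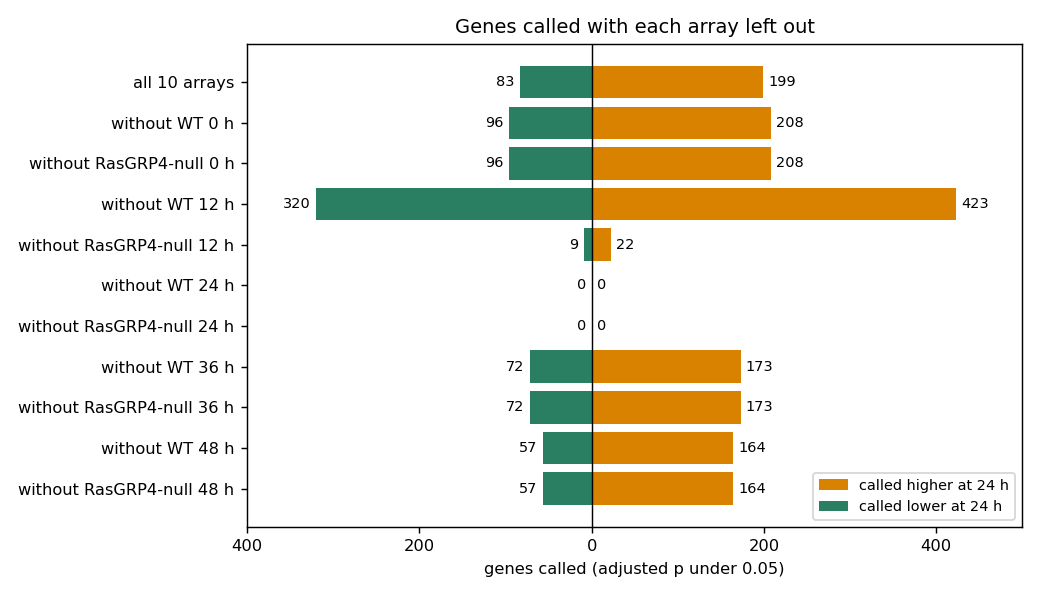
Number of genes called from 12 to 24 h, higher and lower, with each of the 10 arrays left out. The count is 282 with all arrays, 743 without WT 12 h, 31 without the array labelled RasGRP4-null 12 h, and 0 without either 24 h array.

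Gapdh, by which the authors scaled a second set of values, had 3893 and 3332 in WT cells and 2815 and 3871 in RasGRP4-null cells. It went down by 0.22 on the log2 scale in the former and up by 0.46 in the latter. On the GAPDH-normalized scale the median change of all probe sets was therefore 0.10 in WT and -0.26 in RasGRP4-null cells, against -0.01 and -0.03 on the PLIER scale. With those values 124 genes rose and 58 fell, and 174 of these 182 were among the 282.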

How the data were processed

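RNA of CD117+ splenocytes was hybridised to 10 arrays, 1 for each genotype and time (0, 12, 24, 36 and 48 h of LPS), and groups were taken from the titles. With Affymetrix Expression Console the authors summarised probes as PLIER intensities, which they deposited also as GAPDH-normalized intensities, the same values times 1 factor per array. Versions are not given in the sources used here. The names of the deposited columns show a sketch method, so the arrays may already share a distribution. Arrays have no read depth, and their number limits the precision. Of the columns of per-sample values 20 were not used, a second copy of these 2 kinds of values.

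Of 41345 probe sets 26660 carry 1 symbol, 3066 several and 11619 none. The brightest probe set of each symbol was kept, and genes that reached 50 on 2 or more arrays entered the fit. limma 3.58.1 (R 4.3.3) was fitted to log2(PLIER + 16) of all 10 arrays with genotype and time (4 residual degrees of freedom), which serves as the pairing by genotype. Tests were two-sided with Benjamini-Hochberg adjustment at 0.05. The genotype difference used 2 further terms (2 residual degrees of freedom). On simulated data of 11179 genes, 81% of planted changes of 1 on the log2 scale and 95% of changes of 2 were recovered for the 24 h against 12 h step, with 10 false calls. The planted changes were equal in both genotypes, and no simulated array stood apart as the array labelled RasGRP4-null 12 h does. These figures may therefore not hold for the real arrays. Other steps ran in Python 3.11.15 (pandas 2.3.3, numpy 2.4.6) and figures were drawn with matplotlib 3.10.9.

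The 32 gene lists, the 15 marker lists, the comparisons and the alternatives were chosen with earlier results of these data known. Genes named are the 15 largest rises and 15 largest falls that went the same way in both genotypes, in each list the 4 genes of lowest p, genes the study names for these arrays, and up to 5 with the smallest p for the genotype difference. Bub1b, Pttg1, Ifit2, Oasl1, Itgax, Ighg3, Pydc3 and the histone, kinesin and condensin families were named after their values were seen, as were the genes of probe sets with several symbols. A few genes that this rule would name are not reported here. Promoter windows came from RefSeq (GRCm38.p6).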

Additional observations from a re-analysis of the deposited data

Results flagged for a closer look

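Some gene lists, and Gapdh, had median changes of opposite sign in WT and RasGRP4-null cells, with 1 array per genotype and time, and these differences were not tested. Given as the median over the genes of the RasGRP4-null minus the WT change from 12 to 24 h, the difference was 0.321 for glucose uptake and glycolysis (medians -0.20 in WT and 0.14 in RasGRP4-null cells), 0.329 for cholesterol synthesis (-0.37 and 0.06), and 0.18 for class switching and germinal centre genes (just below 0 and 0.07). Among marker lists it was 0.372 for T cells (-0.41 and 0.01), 0.17 for SIRPA-type dendritic cells (-0.16 and 0.13), 0.125 for plasmacytoid dendritic cells (-0.28 and 0.05) and -0.499 for basophils (0.26 and -0.23, 3 genes). Gapdh itself differed by 0.681 (-0.22 in WT and 0.46 in RasGRP4-null cells). The array labelled RasGRP4-null 12 h enters each of these differences, and its part in them was not tested. Single-array differences of this kind cannot be set against a spread between replicates.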

How the results depend on the processing

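The 282 genes called from 12 to 24 h became 182 on the GAPDH-normalized scale and 485 in a fit of the 4 arrays alone, and the methods' t-test gave 278 higher and 488 lower at its threshold and 0 after Benjamini-Hochberg. With the other scales, filters and fits the count ranged from 202 to 330, and with 1 array left out from 0 to 743. The share of rises among the calls was 70.6%, 61.0% in the 4 arrays alone, 78.2% without the genotype term. The genotype difference had 2 calls with a pseudocount of 64, with a filter at 100 and with an intensity trend, and 0 to 299 with an array left out. The difference from the 36 to 48 h step fell from 52 to 17 on the GAPDH-normalized scale, 0 with a pseudocount of 1, 27 with no filter and 29 without the genotype term, and was 97 with a filter at 100, with 0 to 445 when an array was left out. Left-out arrays gave 0 to 36 calls for mitosis and spindle, 0 to 19 for DNA replication (3 on the GAPDH-normalized scale) and 0 to 10 for antiviral genes. The 62 called genes named kept their direction under every setting and left-out array run; 262 of 310 values under other settings and 414 of 620 with an array left out stayed past the threshold. Of named genes not called, some changed sign with an array left out. Ptgs1 ranged from -0.084 to 0.063 (above 0 without either WT array), Itgax from -0.41 to 0.11 (above 0 without WT 24 h) and Znrd1 from -0.082 to 1.57 (below 0 without the array labelled RasGRP4-null 12 h). The cause was not tested. No paired analysis by replicate number was possible because all replicate numbers are 1. The pairing used, by genotype, is that of the genotype term and of the paired t-test. Near background no change could be measured.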

Other observations

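Some genes of the same pathways share a probe set with other symbols and were not tested, so their values are given without a test. Ccnb1, the second cyclin B, had 88.5 and 206 in WT cells and 44.0 and 214 in RasGRP4-null cells at 12 and 24 h. Mad2l1, of the spindle checkpoint, had 234 and 447, then 187 and 321. Pcna, the sliding clamp of DNA polymerase, had 1198 and 1530, then 1104 and 1261. The probe sets of H2-Aa, H2-Ab1 and Cd74, the class II chains and their invariant chain, were higher at 24 h in both genotypes by 0.17 to 0.38 on the log2 scale. Bcl2a1b, an anti-apoptotic gene with close copies, had 441 and 638 in WT cells but 943 and 467 in RasGRP4-null cells.

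Iron and sterol genes were among the genes that missed the threshold with values lower at 24 h in both genotypes. Hmox1, the heme-degrading enzyme, had 3346 and 2603 before LPS, and 270 and 156 in WT cells and 639 and 248 in RasGRP4-null cells at 12 and 24 h (-1.02, SE 0.31, limma adjusted p = 0.132). Hmgcs1, an early enzyme of cholesterol synthesis, had 618 and 390, then 515 and 402 (-0.50, adjusted p = 0.152).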
